A study of Arabidopsis thaliana with 16 samples.

Results

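Plasma membrane intrinsic proteins (PIPs) are the aquaporins of the plant cell surface, where they let water, and in some cases other small molecules such as carbon dioxide, cross the membrane. An aquaporin folds into a bundle of membrane-spanning helices, and a pair of short loops, each carrying the Asn-Pro-Ala (NPA) box, meet in the middle to form the pore. Plants have PIP1 and PIP2 subfamilies, whose products can assemble into mixed tetramers, and the water permeability of plant tissue under salinity and drought is known to depend in part on them. RNA-binding protein (RBP) occupancy and RNA secondary structure of 10 PIP transcripts of Arabidopsis thaliana were described here in nuclei of control-treated and salt-treated rosette leaves. The genes were chosen by locus identifier: PIP1;1 to PIP1;5, PIP2;1, PIP2;2, PIP2;3, PIP2;6 and PIP2;7, which are 10 of the 10637 genes in the mRNA structure tables. Being listed in these tables, which the authors limited to transcripts past their own filter, was part of the choice, and the 3 other PIP genes were not listed.

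All plants were of the UBQ10:NTF/ACT2p:BirA line in the Columbia-0 background, in which the UBQ10 promoter drives a tag of the nuclear envelope and the ACT2 promoter drives the biotin ligase BirA, so that nuclei can be captured on streptavidin beads. Per the study's methods a protein of the endoplasmic reticulum could still be detected in such nuclei, so RNA attached to that membrane is part of the sample. Rosette leaves 4 weeks old were crosslinked with formaldehyde, and salt-treated plants differed from control-treated ones by long-term watering with sodium chloride. Protein interaction profile sequencing (PIP-seq) gave 16 libraries, made of 2 conditions, 2 replicates, 2 RNases (specific for double-stranded or single-stranded RNA) and either protein-bound or protein-free RNA. The deposited tables held 4 lists of protein protected sites (PPSs), 1 per condition and replicate, with 26188 to 35513 PPSs each, and 1 structure score per base and condition with the replicates merged. The structure score, the log ratio of reads from double-stranded over single-stranded RNA, is positive where bases are more paired and negative where they are less paired than the average of their transcript. The structure tables held 4 of 5 leaf mesophyll genes looked for (small subunit of Rubisco, light-harvesting protein, Rubisco activase and carbonic anhydrase genes), and none of 2 root hair or 2 seed genes. The tables carry no expression level, and in whole leaves fewer cells with a transcript cannot be told apart from less of it per cell.

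The PIP1 genes lie, in numerical order, at chr3:22733309-22735335 (AT3G61430), chr2:18910295-18911982 (AT2G45960), chr1:225665-227302 (AT1G01620), chr4:185450-187627 (AT4G00430) and chr4:12220743-12222371 (AT4G23400) of TAIR10. The PIP2 genes lie, in the same way, at chr3:19803655-19805713 (AT3G53420), chr2:15613402-15614857 (AT2G37170), chr2:15617708-15619155 (AT2G37180, also named RD28), chr2:16291477-16294034 (AT2G39010) and chr4:16708552-16710289 (AT4G35100). PIP2;2 and PIP2;3 lie close together on opposite strands. In all 10 genes isoform 1 had 4 exons, of which exon 2 was 296 nt and exon 3 was 141 nt long, so that these exons of all members could be set against each other base by base without a gap. The first NPA box was encoded from position 12 of exon 2 and the second from position 79 of exon 3 in every member. The introns differed more in length, and intron 1 ranged from 92 nt in PIP2;7 to 505 nt in PIP2;6.

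PPSs are stretches that proteins shielded from RNase. The PPSs that carry the results below are shown as sequence from the TAIR10.1 assembly, 5' to 3' on the strand of the gene. The first set is the stretch of 66 nt around exon 2 positions 200 to 203, the only part of exon 2 apart from its end where PPSs of 4 members met. The last of the set had no PPS anywhere and is shown for comparison, with bases under a PPS of any list in capitals.
PIP1;1, chr3:22734413-22734478: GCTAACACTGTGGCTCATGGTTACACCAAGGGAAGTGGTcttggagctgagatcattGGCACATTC
PIP2;2, chr2:15614140-15614205: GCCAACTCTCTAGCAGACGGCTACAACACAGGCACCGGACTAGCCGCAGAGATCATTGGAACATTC
PIP2;3, chr2:15618365-15618430: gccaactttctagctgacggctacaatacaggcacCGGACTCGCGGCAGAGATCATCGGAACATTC
PIP2;7, chr4:16709214-16709279: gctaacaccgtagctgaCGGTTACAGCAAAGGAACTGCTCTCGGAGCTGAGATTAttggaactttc
PIP1;5, chr4:12221560-12221625: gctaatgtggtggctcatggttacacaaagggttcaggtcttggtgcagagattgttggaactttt

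Many PPSs of this family reached into introns. The start of intron 1 was under a PPS in 5 members, and its sequence is given with the last 20 exon bases in capitals.
PIP1;2, chr2:18910758-18910797: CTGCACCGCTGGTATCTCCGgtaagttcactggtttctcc
PIP1;3, chr1:226829-226868: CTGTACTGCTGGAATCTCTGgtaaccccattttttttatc
PIP1;4, chr4:187181-187220: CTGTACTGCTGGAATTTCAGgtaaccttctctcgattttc
PIP2;1, chr3:19805128-19805167: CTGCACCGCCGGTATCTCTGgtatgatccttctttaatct
PIP2;6, chr2:16291848-16291887: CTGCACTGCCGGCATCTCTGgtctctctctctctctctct

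For 4 members a PPS that touched an intron is shown whole, with exon bases in capitals. Each had the highest score of its gene, the last one jointly with a PPS within exon 1. The first lay inside intron 1, the next 2 spanned the end of intron 2 and the start of exon 3, and the last spanned the end of exon 3 and the start of intron 3.
PIP2;6, chr2:16292031-16292097: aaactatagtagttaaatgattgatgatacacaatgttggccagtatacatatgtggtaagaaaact
PIP2;3, chr2:15618562-15618614: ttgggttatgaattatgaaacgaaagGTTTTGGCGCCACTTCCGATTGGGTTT
PIP1;4, chr4:186467-186537: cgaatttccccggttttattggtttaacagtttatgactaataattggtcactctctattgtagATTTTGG
PIP1;2, chr2:18911487-18911527: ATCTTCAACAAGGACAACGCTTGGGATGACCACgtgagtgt

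PPSs also covered start codons, which are in capitals in the PPSs of 3 members.
PIP1;1, chr3:22733642-22733695: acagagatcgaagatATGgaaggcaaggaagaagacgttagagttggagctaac
PIP2;1, chr3:19805402-19805481: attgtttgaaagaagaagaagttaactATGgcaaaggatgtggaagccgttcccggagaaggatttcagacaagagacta
PIP2;2, chr2:15614742-15614796: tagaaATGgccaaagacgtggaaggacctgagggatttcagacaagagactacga

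RBP binding was unevenly spread over the family. The 4 lists, in the order control replicates 1 and 2 and salt replicates 1 and 2, held 48, 42, 40 and 24 PPSs over the 10 genes on either strand. They touched 8, 7, 9 and 5 members, against 51.4%, 45.8%, 52.6% and 40.9% of all genes in the tables. In the same order of lists PIP2;6 had 13, 6, 6 and 9 PPSs, and PIP1;4 had 8, 14, 8 and 0. PIP2;1 had 8, 6, 8 and 0, PIP1;2 had 6, 4, 4 and 5, PIP1;3 had 4, 7, 5 and 0, and PIP1;1 had 5, 0, 5 and 7. These 6 genes held most of the PPSs, and each of them had some in both conditions. PIP2;2 had 2, 3, 1 and 0, PIP2;3 had 2 in each list, PIP2;7 had 0, 0, 1 and 1, and PIP1;5 had none. The counts are of sites and not of reads, and a gene without a PPS in a list may have been bound below the calling threshold.

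**Figure D1:**
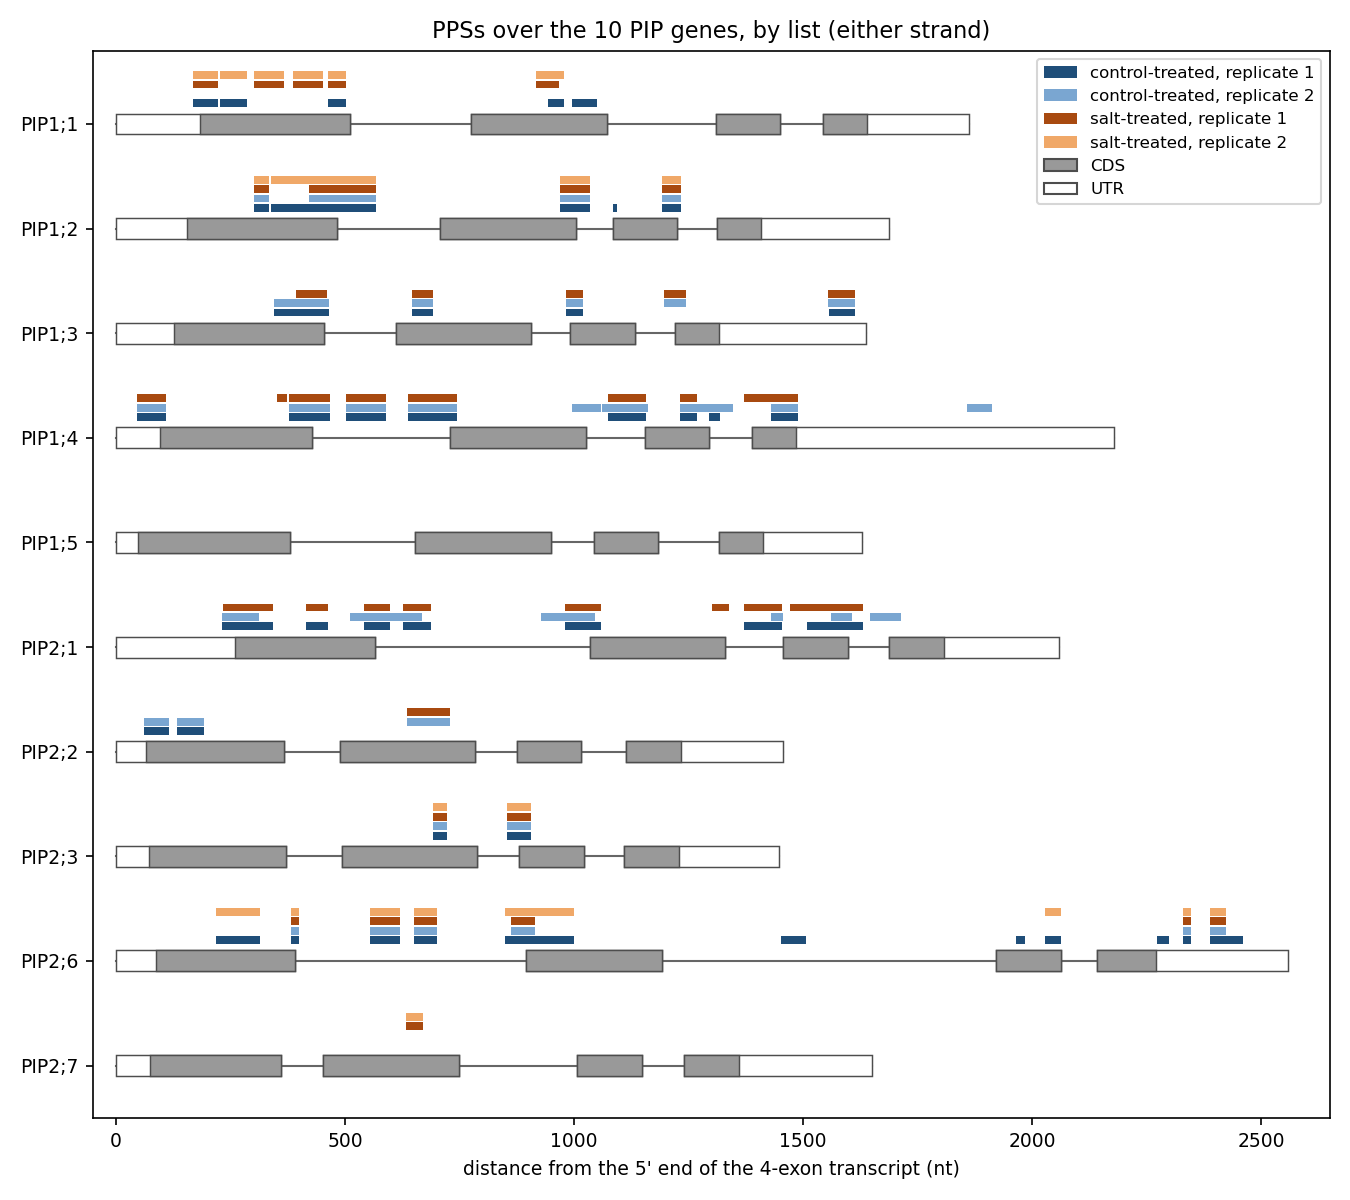
Gene models of the 10 PIP genes with PPSs above them, in rows by list, with the x axis as the distance in nt from the 5' end of the 4-exon transcript and with grey boxes for CDS, white boxes for UTR and lines for introns. The last PIP1 gene carries no PPS, and the second salt list is empty over the 4 minus-strand genes.

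The lists had long stretches in which genes of 1 strand carried almost no PPSs, and the members without PPSs often lay there. In the second salt list 25.6% of minus-strand genes had a PPS against 56.0% of plus-strand genes, and all 4 minus-strand members had none. Among the other genes of the strand of PIP1;3, PIP1;4, PIP2;1 and PIP2;2 in the same megabase, 20 of 52, 4 of 51, 10 of 68 and 1 of 57 had a PPS in that list. In the second control list 32.4% of plus-strand genes had a PPS against 59.4% of minus-strand genes. There PIP1;1, PIP1;5 and PIP2;7 had none, and 0 of 55, 1 of 67 and 2 of 66 of their neighbours had any. In the other 3 lists 28, 34 and 36 of the 67 neighbours of PIP1;5 had a PPS, while the gene itself had none. The difference between conditions in the number of PPSs over the family, a mean of 32 in salt against 45 in control, was -13 with an SD between replicates of 8.54. Without the second salt list it was -5, and without the first salt list it was -21. On the gene strand alone the lists held 20, 33, 40 and 6 PPSs, a mean difference of -3.5. With 2 lists against 2, an exact two-sided permutation test cannot go below 0.333, so no test was made. The part of these gaps in the counts was not tested.

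The same calls recurred between lists. The 154 entries were 74 distinct calls by position and score, and 47 of these stood in more than 1 list. The other 27, or 36.5%, stood in 1 list, against 51.7% of the 73512 distinct calls in the lists as a whole. Of those 47, 34 were listed on opposite strands in different lists, and 6 under different RNases. PPSs are therefore counted on either strand, and the lists are not independent of each other. With overlapping calls joined, the family had 52 bound sites, of which 37 were found in both conditions (71.2%), 10 in control only (19.2%) and 5 in salt only (9.62%). Joined in the same way, the 37689 sites over all genes were at 50.7%, 26.5% and 22.8%. Sites found in all 4 lists were 12 of the 52 (23.1%), against 13.2% over all genes. The salt-only sites were 2 in exon 1 of PIP1;1 and 1 each in PIP1;4, PIP2;1 and PIP2;7. The control-only sites were spread over 6 members, with 3 of them in PIP2;6. Requiring both replicates to overlap on the same strand left 27 pairs of calls over 7 members in control and 3 pairs over 3 members in salt. On either strand the same requirement gave 43 pairs over 7 members and 21 pairs over 5 members. These pairs were not counted over all genes. The paper reports that fewer PPSs were found in both replicates in salt than in control over the whole data, so the lower counts in salt are not particular to this family. The second salt list was empty over the 4 minus-strand members, which could give no pair in salt. The second control list was empty over PIP1;1, PIP1;5 and PIP2;7, which could give none in control. Of the 24 PPSs of the second salt list, 6 were on the gene strand.

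With PPSs on either strand, a larger share of intron bases lay under PPSs in the PIP genes than in all genes. In the 4 lists 18.1%, 19.2%, 17.3% and 5.98% of the family's 5397 intron bases were under a PPS, against 2.15%, 1.85%, 2.22% and 1.76% over all genes. Of the family's intron bases 6.32%, 16.5%, 17.3% and 0.871% were under a PPS listed on the gene strand. This share was not computed over all genes. In the second salt list the 0.871% lay below the 1.76% of all genes on either strand. Coding bases were at 17.9%, 12.5%, 15.9% and 10.6%, against 8.57%, 6.50%, 7.27% and 6.23% over all genes. The 5' UTRs were at 8.40%, 7.12%, 7.89% and 1.29%, against 3.26%, 2.93%, 3.06% and 1.82%. The 3' UTRs were at 5.97%, 5.77%, 3.90% and 1.80%, against 2.48%, 1.93%, 2.20% and 2.01%. On either strand the ratio to all genes was thus higher in introns than in CDS in all 4 lists. In the second salt list the shares of both UTRs were below those of all genes. Exon bases as a whole were at 14.4%, 11.1%, 12.6% and 7.50%, so the second salt list had the lowest share of the 4 in every kind of region, and it is the list with no PPSs over the minus-strand members. Of the 74 distinct calls, 34 lay in exons only, 29 crossed an exon-intron border and 11 lay in introns only, which are 45.9%, 39.2% and 14.9%. Over all genes the shares were 75.5%, 16.1% and 8.41%. Introns of the members are here those of isoform 1. Intron 3 of PIP1;2 and intron 2 of PIP1;4 are exon in isoform 2, and calls there count as intron or border calls by this choice. The exon bases as a whole are those of any listed isoform, so both of these introns are also among them. No spread between genes was tested here, and the shares describe these 10 genes.

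The bound introns belonged to some members only. A PPS crossed an exon-intron border in at least 1 list in 6 of 10 members, where 27.4% of all genes with introns had one and 32.8% had any intron base under a PPS. Of the other 4 members, 1 had no PPS and 3 had PPSs within exons only. The 11 intron-only calls were in PIP1;4 (4), PIP2;1 (4) and PIP2;6 (3). Of the 60 splice sites of the family, 20 were under a PPS in at least 1 list. The 5' splice site of intron 1 was covered in the 5 members whose sequences are printed above. Each of the other 5 kinds of site was covered in 3. The share of splice sites under a PPS was not computed over all genes, so these counts have no background. PIP1;4 had all 6 of its splice sites covered. All 30 introns began with GT and ended with AG. Intron bases under a PPS were 33.4% G or C and 37.4% T, and the other intron bases 30.9% and 40.4%.

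The PPSs with the highest scores differed in place from gene to gene. The highest of the family, at 23.6, covered the last 110 coding bases of exon 1 and 10 intron bases of PIP1;3 in both control lists. Within that place a PPS of 67 nt at 12.59 was in the second control list and the first salt list. The highest PPS of PIP1;4, at 23.21 in the second control list, covered 64 bases of intron 2 and 7 of exon 3. Nearly the same place held a PPS of 84 nt at 21.78 in both control lists and the first salt list. The highest PPS of PIP2;1, at 21.94 in both control lists, covered 27 bases of the 5' UTR and 53 of the CDS with the start codon. It overlapped a PPS of 110 nt at 10.95 in the first control list and the first salt list. The highest PPS of PIP2;6, at 19.45 in all 4 lists, lay within intron 1. The PIP2;3 PPS at 14.22, also in all 4 lists, covered 26 bases of intron 2 and 27 of exon 3. Lower maxima were those of PIP1;2 at 11.03, PIP1;1 at 9.61 (exon 1, both salt lists), PIP2;7 at 8.13 (exon 2, both salt lists) and PIP2;2 at 7.92 (exon 2, in 1 list of each condition). The score median over the 74 calls was 8.84, and their length ranged from 9 to 159 nt with a median of 58.5 nt.

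The 12 calls found in all 4 lists were in 3 genes, the only members with any PPS in each list. Over every other member the second control list or the second salt list held none, so no such call could arise there. PIP2;6 had 6 of them, of which 2 lay within intron 1, 2 crossed a border of that intron and 2 lay in the 3' UTR. PIP1;2 had 4, of which 1 lay within exon 1 and 3 crossed into introns 1, 2 and 3. PIP2;3 had 2, the 31 capital bases of exon 2 printed above, at a score of 6.81, and the PPS over the end of intron 2.

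Start codons were under a PPS in PIP1;1, PIP1;4, PIP2;1 and PIP2;2. These are 4 of 10 members, against 12.0% of all genes with a CDS in the tables. The PIP1;1 site was in control replicate 1 and both salt lists, and the sites of PIP1;4 and PIP2;1 were in both control lists and salt replicate 1. The PIP2;2 site was in both control lists only. The bases under these PPSs had low scores in the protein-free structure libraries. Their mean was -2.004 in control and -0.86 in salt in PIP1;1, and -2.24 and -1.71 in PIP1;4. In PIP2;1 the PPS printed above had -1.15 in control and -0.37 in salt, and a second, overlapping one of 110 nt had -0.79 and -0.05. In PIP2;2 they were -1.16 and -0.32. All 5 of these PPSs thus lay below 0 in both conditions and were closer to 0 in salt.

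Within 20 nt on each side of the start of the CDS, the mean score in control was -1.14, -2.32, -1.31, -3.03 and -2.85 in PIP1;1 to PIP1;5. In the PIP2 mRNAs, in numerical order, it was -1.21, -0.91, -0.94, 0.14 and 0.30. All 5 PIP1 mRNAs and 3 of 5 PIP2 mRNAs were thus below 0, which is 8 of 10, and 55.2% of all genes were. The median was -1.17 over the members and -0.15 over all genes. In salt it was -0.52, -1.58, 0.85, -2.11 and -3.43 in the PIP1 mRNAs and -0.54, -0.35, 0.42, -0.08 and 1.26 in the PIP2 mRNAs. The members' median in salt was -0.43 and 7 of 10 were below 0, where all genes had a median of -0.10 and 54.0% below 0. PIP1;3 differed most between conditions.

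The 3' UTRs of the family scored lower in salt than in control. This held for 9 of 10 members, against 57.2% of all genes, and the median change was -0.38 against -0.11. In PIP1;1 to PIP1;5 the control scores were -0.11, -0.18, 0.01, 0.04 and 0.98, and the salt scores were -0.40, -0.26, -1.33, -0.07 and 0.22. In the PIP2 mRNAs, in numerical order, the control scores were 0.31, -0.18, 0.17, -0.43 and -0.24, and the salt scores were -0.55, -0.65, 0.90, -0.67 and -1.66. The largest changes were those of PIP2;7, at -1.42, and PIP1;3, at -1.35, while PIP2;3 was the exception with a change of 0.73. Over all genes 8.66% had a lower change than PIP2;7, and 41.0% had a lower change than PIP1;1. The PIP1;2 values are those of isoform 2, which keeps intron 3 as mRNA, and with isoform 1 its change was -0.18 in place of -0.08. The CDS of isoform 2 ends within that intron. Its 3' UTR, of 403 bases against 279 in isoform 1, thus holds intron bases and bases that are coding in isoform 1. Between 82 and 481 bases of a 3' UTR were scored in a condition. Each mean is over the bases scored in that condition, and these were not the same in control and salt. They numbered 204 in control and 124 in salt in PIP2;7, 158 and 92 in PIP2;3, and 202 and 82 in PIP1;5. In PIP1;1 they were 180 and 181. The change over bases scored in both conditions was not computed. Each condition has 1 merged value, so none of these changes could be set against a spread between replicates.

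Coding sequence differed the other way, and by less. Scores were higher in salt in 8 of 10 members, against 55.6% of all genes, with a median change of 0.18 against 0.02. The changes were 0.22, -0.05, 0.16, 0.03 and 0.23 in PIP1;1 to PIP1;5 and 0.24, 0.06, -0.14, 0.20 and 0.33 in the PIP2 mRNAs in numerical order. The last of these was the largest change, and 93.2% of all genes had a lower one. Scores of each transcript are centred on 0 in each condition, so a lower 3' UTR and a higher CDS of the same transcript are not separate observations. The 3' UTR lay below the CDS in 7 of 10 members in control, where 56.2% of genes did, and in 8 of 10 in salt, where 65.3% did.

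**Figure D2:**
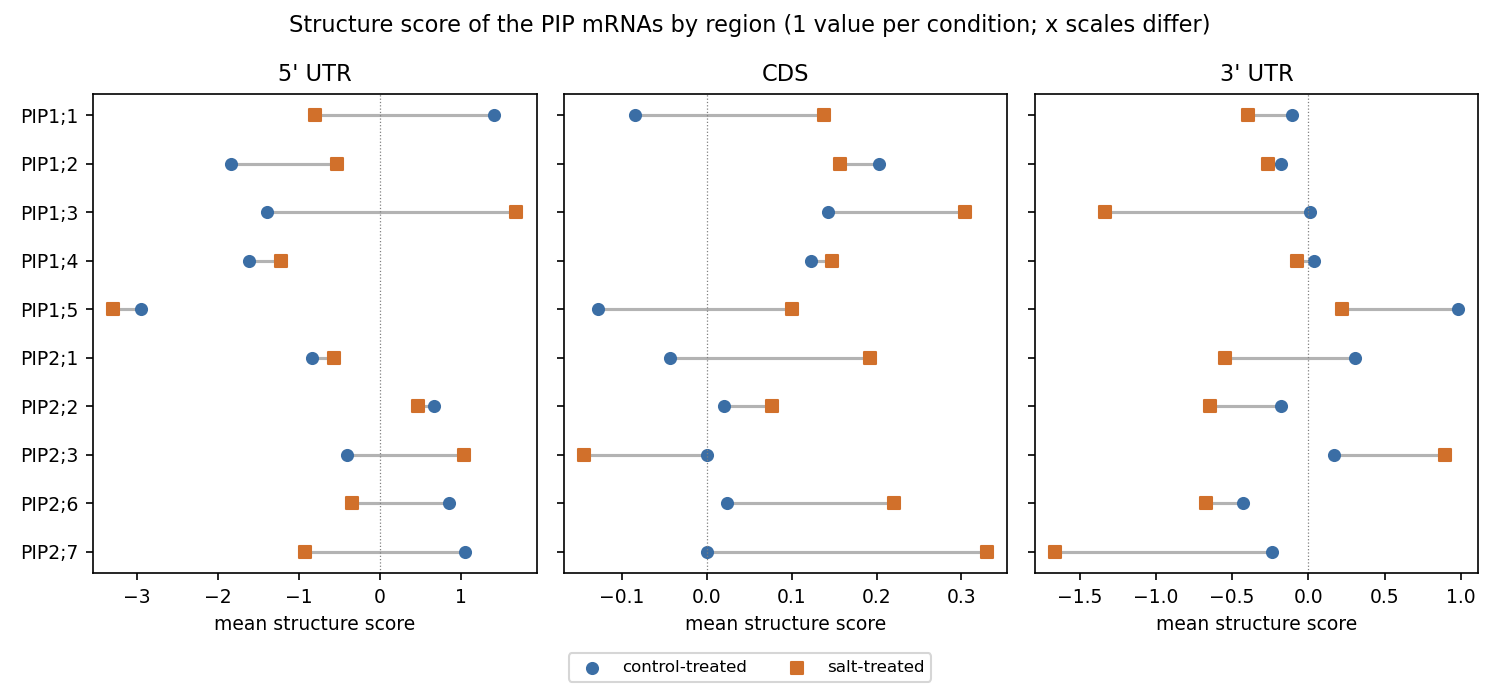
Mean structure score (x axis, log ratio, unitless) of the 5' UTR, CDS and 3' UTR of the 10 PIP mRNAs in control-treated (circles) and salt-treated (squares) leaves, 1 merged value per condition, with x scales that differ between panels. In the 3' UTR 9 of 10 squares lie left of their circles, in the CDS 8 of 10 lie right of them, and in the 5' UTR 5 lie on each side.

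The 5' UTRs changed most and in no common direction. Scores were lower in salt in 5 members and higher in 5, against 50.6% of all genes that were lower. In PIP1;1 to PIP1;5 the control scores were 1.41, -1.84, -1.40, -1.62 and -2.95 and the salt scores -0.80, -0.54, 1.69, -1.22 and -3.30. In the PIP2 mRNAs, in numerical order, they were -0.84, 0.67, -0.40, 0.86 and 1.06 in control and -0.57, 0.47, 1.04, -0.34 and -0.92 in salt. The change of PIP1;3, at 3.08, was above that of 98.5% of genes, and 3.52% of genes had a lower change than PIP1;1, at -2.21. Only 22 to 93 bases of a 5' UTR were scored in a condition, which in PIP2;1 were 52 of 259 bases in control and 75 in salt. Here too the scored bases were not the same in control and salt.

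By exon, the last exon scored lower in salt in every member. Exon 4, which holds the end of the CDS and the 3' UTR, was lower in 10 of 10 members, with changes from -0.98 in PIP1;3 to -0.03 in PIP2;3 and a median of -0.42. Its means rest on the bases scored in each condition, which in PIP2;7 were 322 in control and 238 in salt. Among the 987 genes of 4 exons with enough scored bases, 52.9% had a lower exon 4 and the median change was -0.02. Exon 1, which holds the 5' UTR and the start of the CDS, was higher in salt in 7 of 10 members, against 54.5% of genes of 4 exons, with a median change of 0.11 against 0.05. Exon 2, which holds the first NPA box, was higher in salt in 9 of 10 members, against 49.3% of genes of 4 exons, with a median change of 0.27 against -0.00465. Its change ranged from 0.03 in PIP1;1 to 1.11 in PIP1;5 among these 9, and PIP2;3 was again the exception, at 0.21 in control and -0.42 in salt. Exon 3, which holds the second NPA box, was higher in salt in 5 of 10 members, against 52.0% of genes of 4 exons. The 5 were PIP2;7 (0.42 in control, 1.92 in salt) and, with changes of 1.07, 1.06, 0.82 and 0.68, PIP2;2, PIP1;1, PIP2;3 and PIP1;5. In the other 5 members the change lay between -0.39 and -0.10, and both sets held PIP1 and PIP2 genes. Exon 4 holds the 3' UTR described above, and scores of each transcript are centred on 0 in each condition. The changes of the exons are therefore not separate observations from each other or from those of the regions.

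**Figure D3:**
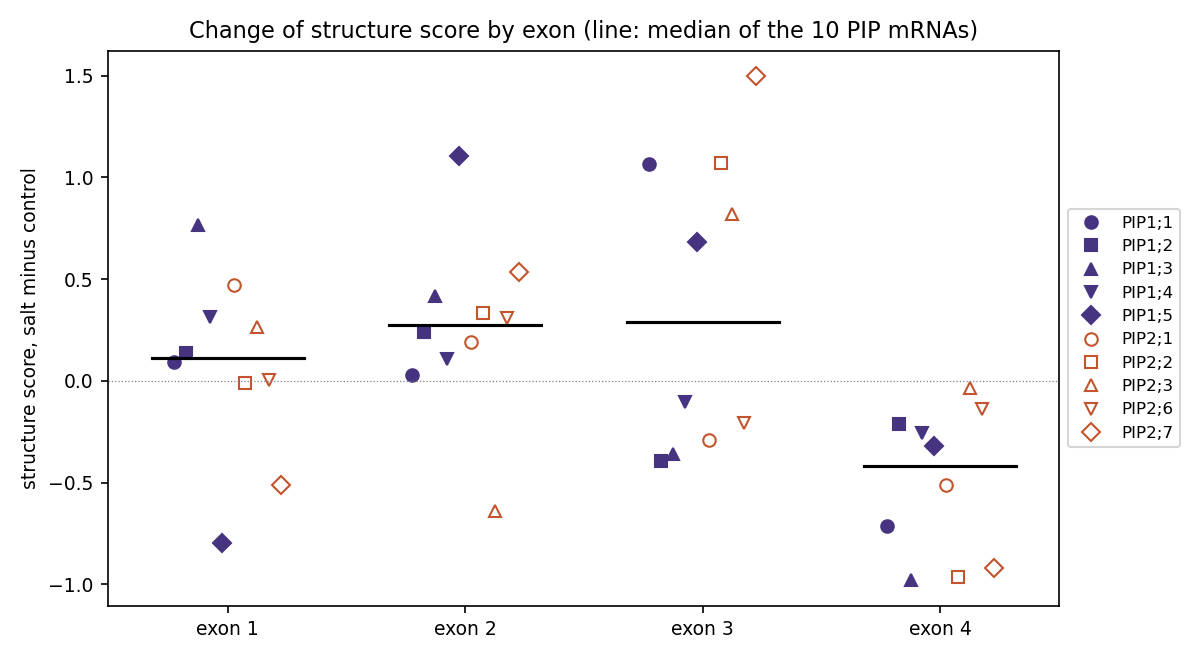
Change of the mean structure score (y axis, salt minus control) for exons 1 to 4 of the 10 PIP mRNAs, filled symbols for PIP1 and open symbols for PIP2 members, with a line at the median of the 10. All 10 points of exon 4 lie below 0 and 9 of 10 points of exon 2 lie above it.

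The aligned exons allowed the same base to be followed across the family. Of the 437 positions of exons 2 and 3, 238 had the same base in all 10 members. The profiles of structure scores over these exons correlated with a median r of 0.11 over 45 pairs of members in control (-0.36 to 0.57) and 0.05 in salt (-0.52 to 0.47), where the bases of a pair share much of their sequence and pairs share members. Mean scores over the 10 members at positions 101 to 150 of exon 2 were -0.05 in control and 0.69 in salt, the largest difference among windows of 50 nt, with 7 of 10 members higher in salt and an SD of 0.87 between members. In exon 3 positions 51 to 100 went from 0.12 to 0.67, with 6 of 10 members higher and an SD of 0.90. Both differences are smaller than the SD between members.

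**Figure D4:**
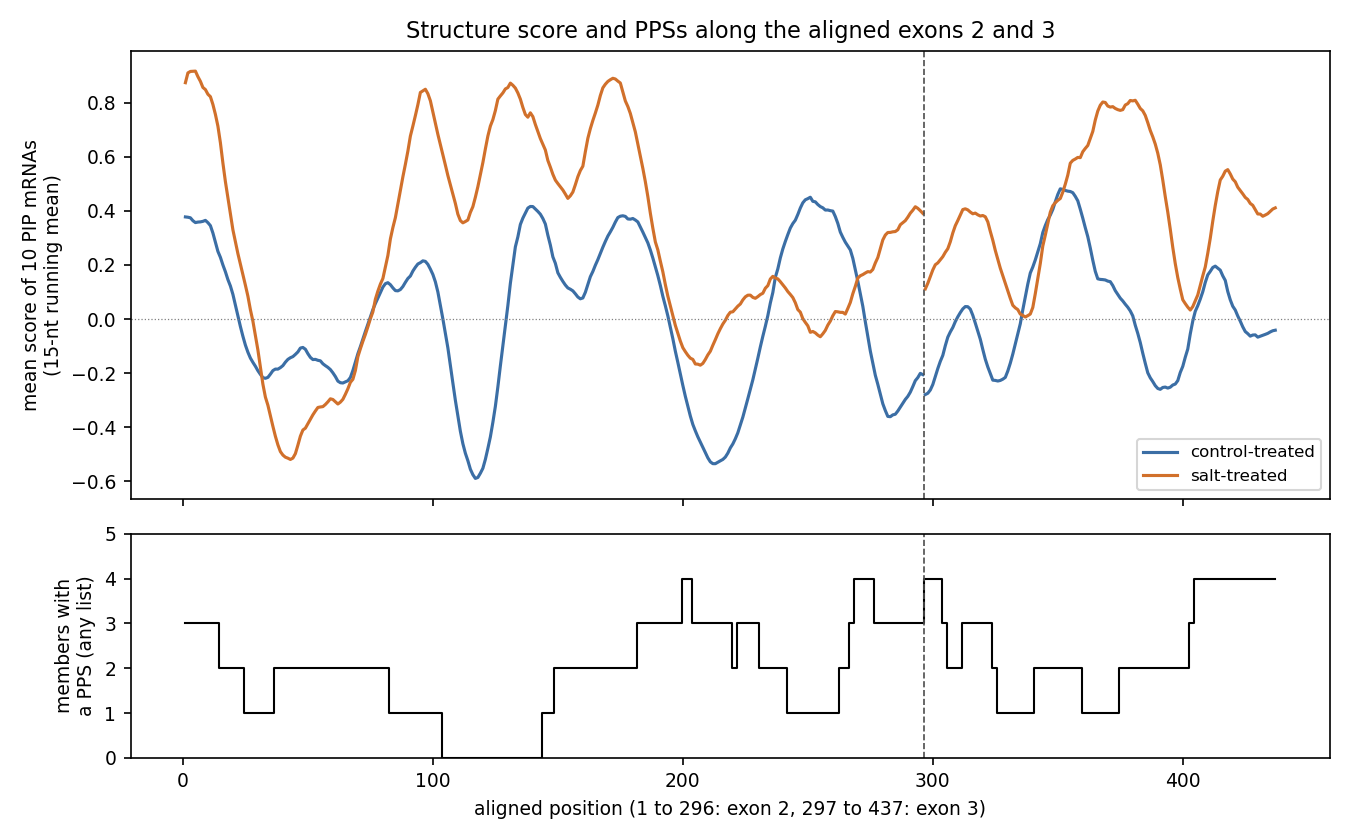
Mean structure score of the 10 PIP mRNAs, over those scored at each position (upper panel, 15-nt running mean), and number of members with a PPS in any list (lower panel) along the aligned exons 2 and 3 (x axis, position in nt, with the exon border dashed). No member has a PPS at 40 positions in the middle of exon 2, and 4 members share PPSs at the end of exon 3.

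PPSs fell at the same aligned place in at most 4 members. They did so at exon 2 positions 200 to 203 (PIP1;1, PIP2;2, PIP2;3 and PIP2;7, within the stretch printed above) and 269 to 276 (PIP1;1, PIP1;2, PIP1;4 and PIP2;1). They did so too at exon 3 positions 1 to 7 (PIP1;2, PIP1;3, PIP1;4 and PIP2;3) and 109 to 141 (PIP1;2, PIP1;4, PIP2;1 and PIP2;6). The last of these runs ends at the 5' splice site of intron 3. No member had a PPS at 40 positions, which form 1 run from position 104 to position 143 of exon 2. A single member had one at 89 positions. The positions with 4 members numbered 52 of 437, so that PPSs of the family were spread over the aligned exons rather than gathered at 1 place. The NPA boxes line the pore of the channel, and their codons were under PPSs in some members only. The codons of the first box were under a PPS in PIP1;4 (3 lists), PIP2;1 (2 lists) and PIP2;6 (all 4 lists). Those of the second were under a PPS in the first 2 of these genes, again in 3 and 2 lists. The mean score over the 9 bases of the first box ranged from -1.57 to 1.62 between members in control and from -2.45 to 2.68 in salt. Over the second box it ranged from -0.78 to 2.22 in control and from -0.37 to 2.79 in salt. The first box thus had scores on both sides of 0 in both conditions although it encodes the same residues in all members, and each mean rests on 9 bases with no replicate.

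Bases under a PPS had lower structure scores than the other bases of the same mRNA in control, and in most members higher ones in salt. In control the difference was below 0 in 8 of 8 members with PPSs, from -0.52 in PIP1;1 to -0.03 in PIP1;2, with a median of -0.29. Bound bases were below unbound ones in 70.8% of all genes, with a median of -0.30, so the members were close to all genes in control. In salt the difference was above 0 in 7 of 9 members and the median was 0.25. Over all genes in salt bound bases were below in 64.6%, with a median of -0.19. The members above 0 ranged from 0.07 in PIP1;2 to 0.96 in PIP2;2. The other 2 were PIP1;3 (-0.88) and PIP1;4 (-0.90). In the members above 0, bound bases in salt numbered from 38 in PIP2;7 to 360 in PIP2;1, with 93 in PIP2;2. The salt PPSs of PIP1;3, PIP1;4, PIP2;1 and PIP2;2 came from the first salt list alone. In PIP2;3, where the same 58 bases were bound in both conditions, their mean score was -0.23 in control and 0.58 in salt. Within the CDS alone, bound bases were lower in 7 of 8 members in control and in 4 of 9 in salt, with medians of -0.23 and 0.07. The structure libraries were free of protein, so the scores are not those of the bound RNA itself.

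**Figure D5:**
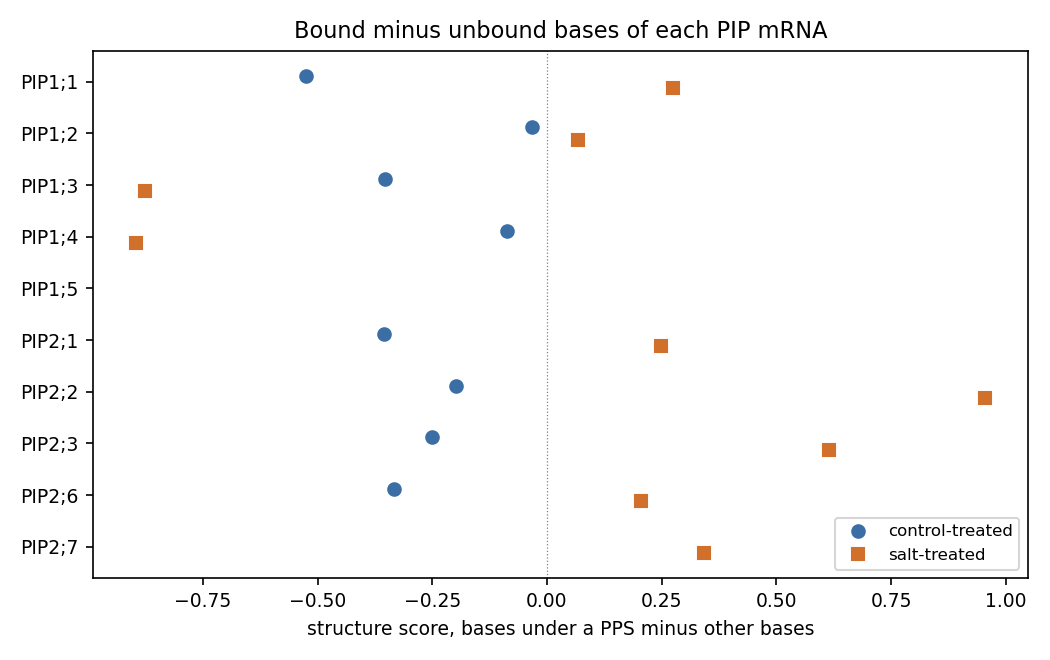
Mean structure score of bases under a PPS minus that of the other bases (x axis) for each PIP mRNA in control-treated (circles) and salt-treated (squares) leaves. All 8 circles lie left of 0, and 7 of 9 squares lie right of it.

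Near-identical members could share reads. PIP2;2 and PIP2;3 were the most alike pair, with 94.8% identity over 858 aligned coding bases and 357 common 25-mers, and 568 of the 1146 bases of the first lay in a 25-mer found in another member. PIP1;1 and PIP2;6 were the least alike, with 69.5% identity and no 25-mer in common. Structure profiles over the CDS correlated at r = 0.21 for the first pair and 0.29 for the second in control, and at 0.27 and 0.15 in salt. Over all 45 pairs the median r was 0.20 in control and 0.10 in salt, and it was 0.20 both within and between subfamilies in control. PPSs of the first gene of the closer pair were at the start codon, in exon 1 and in exon 2, and those of the second were in exon 2 and at the start of exon 3. The sign of the change of PIP2;3 was opposite to that of PIP2;2 in the 5' UTR, the CDS, the 3' UTR and exons 1 and 2. It was the same in exon 3 (1.07 in PIP2;2 and 0.82 in PIP2;3) and in exon 4 (-0.96 and -0.03). Regions and exons overlap and scores are centred per transcript, so these are not separate observations. Between control and salt, the profile of a single mRNA correlated with a median r of 0.29 over the 10 members, from 0.01 in PIP2;3 to 0.51 in PIP1;2 and PIP2;1. The median over all genes was 0.20. Scored bases made up 82.8% to 97.1% of a member's mRNA in control and 79.5% to 95.5% in salt, and the lowest share was that of PIP1;5 in salt, where the 3' UTR had scores at 82 of 216 bases.

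Other aquaporin families were less often in the structure tables. Of 10 tonoplast intrinsic protein (TIP) genes, which move water across the vacuole membrane, 4 were listed, and of 3 small basic intrinsic protein (SIP) genes 2 were. None of 9 nodulin 26-like intrinsic protein (NIP) genes and none of the 3 PIP genes outside the 10 was listed. PPSs lay over 2, 2, 3 and 2 of the 4 TIP genes in the lists, and GAMMA-TIP (AT2G36830) was the one with a PPS in every list. Neither SIP gene had any. In the 3' UTR the score was lower in salt in 3 of 4 TIP genes, with a median change of -0.57, and in the CDS it was higher in 3 of 4, with a median change of 0.15. Of the 2 SIP genes 1 was lower in salt in the 3' UTR, with a median change of 0.08, and both were lower in the CDS, with a median change of -0.11.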

How the data were processed

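Reads of leaf nuclei were processed by the authors, who per the submitters' processing notes used cutadapt (1.2.1) and TopHat2 (2.0.10) on TAIR10. Paired libraries of the same RNase with and without protein were reduced to equal read numbers, PPSs were called with CSAR at a false discovery rate of 5% and merged within a replicate, and the authors deposited a score per PPS. They also deposited a structure score per base: a generalized log2 ratio of dsRNA-seq over ssRNA-seq, standardized and centred per transcript, with replicates merged. Neither table holds reads, so depth per sample is unknown. Scores of minus-strand transcripts were found to be in genome order, since isoforms of 1531 genes then correlated at shared positions with a median r of 1 (0.25 when reversed, in control).

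From these, PPSs overlapping each gene by 1 nt or more on either strand were counted. Scores were averaged by region over the isoform with most scored bases (isoform 2 for PIP1;2, isoform 1 otherwise; exons always from isoform 1), with at least 20 scored bases per condition. Each condition was averaged over its own scored bases. "All genes" are those of the structure tables. No test was made across genes. Python 3.11.15 with NumPy 2.4.6 and Biopython 1.88 was used, and the scripts were tested on simulated data. Sequences come from RefSeq TAIR10.1, in which all 10 reading frames were open. The named genes are the 10 members, the most and least alike pairs, and the highest-scoring and 4-list PPSs. The members, lists and comparisons were chosen with earlier results of these data known. No separate protein sequences were used, and the NPA boxes were located in the translated coding sequences. The long noncoding RNA structure tables were not used.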

Additional observations from a re-analysis of the deposited data

How the results depend on the processing

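No paired analysis was possible because no result comes from a test and the structure scores have 1 merged value per condition. For counts of PPSs over the family the difference between salt and control was -13, and it was -3.50 with PPSs on the gene strand only, a shift larger than the SD between replicates of 8.54. It was -8 within replicate 1 and -18 within replicate 2, and it ranged from -21 to -5 on leaving out single lists, an alternative chosen after seeing the data. For exon bases under a PPS it was -2.70 percentage points and 0.67 on the gene strand only, -1.82 within replicate 1 and -3.57 within replicate 2, and it ranged from -5.25 to -0.15 without single lists. For intron bases, the alternatives of which were chosen after seeing the data, it was -6.99 percentage points with an SD of 5.70, -0.80 within replicate 1 and -13.2 within replicate 2. The 3' UTR was lower in salt in 8 to 9 of 10 members under each alternative that kept all 10, and in 4 of 4 with 80% of bases scored. The CDS was lower in 2 or 3 of 10. Exon 4 was lower in 9 or 10 members and exon 2 higher in 8 or 9, in alternatives chosen after seeing the data. With CDS bases only, bound bases were lower in salt in 4 of 9 members in place of 2. The median r between pairs was 0.10 in salt and 0.27 without shared 25-mers, in place of 0.20. The causes were not tested.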

Other observations

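Isoforms that keep an intron were listed for 2 members, and their intron bases carry structure scores. In PIP1;2 isoform 2 the 88 bases of intron 3 had a mean score of 1.03 in control and 0.81 in salt. The reading frame of this isoform runs into the intron, so part of the intron belongs to its CDS. In PIP1;4 isoform 2 the 128 bases of intron 2 had a mean of -0.98 in control and -0.07 in salt. This intron holds the highest-scoring PPS of PIP1;4. Because scores are centred per transcript, the 2 introns are not on a common scale, and no replicate values exist for either.

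The 3' UTR was reached by 9 of 74 calls, in PIP1;3, PIP1;4 and PIP2;6, and 2 of those in PIP1;4 covered the stop codon with 4 bases of the 3' UTR each. The PIP2;6 call of 18 nt in all 4 lists had a mean score of -3.56 in control and -2.37 in salt, the lowest of any call over the family in both conditions. In PIP1;3 a call of 58 nt near the end of the 3' UTR scored 15.4 in both control lists, and its bases went from -0.98 in control to -1.93 in salt. A call of 59 nt at nearly the same place scored 6.81 in the second control list and the first salt list.

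The 5 members with a PPS over the 5' splice site of intron 1 were the 5 whose exon 3 scored lower in salt, namely PIP1;2, PIP1;3, PIP1;4, PIP2;1 and PIP2;6. This was noticed after the values were seen, no test was made of it, and it rests on 10 genes.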
